A study of Mus musculus with 4 samples.

Results

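The replication module analysed here is a set of 43 genes of DNA replication and S phase, taken by symbol from the 31053 genes of the deposited matrices, in which each of the 43 was present. The members were read in thymic invariant natural killer T (iNKT) cells, T cells whose semi-invariant receptor sees lipids on CD1d. Cells came from 4 untreated mice of strain C57BL/6, aged 8 to 9 weeks, of which 2 were wild type (called C57BL/6 below) and 2 carried the label Hivep3-/-, a knockout of the zinc finger gene Hivep3. Sorted CD44-low and CD44-high iNKT cells were mixed at an equal ratio, so the sort sets part of the class shares given below. Each mouse gave 1 single-cell 5' library, so the mouse is the replicate, with 2 per genotype, and p-values measure the spread between these mice.

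Cells copy their DNA once per division, in S phase. Origins are licensed by loading the Mcm2 to Mcm7 helicase with the help of Cdc6, and geminin (Gmnn) blocks a further round of loading. At firing, Cdc45 and the GINS complex join the helicase, polymerases copy both strands around the sliding clamp Pcna, and ribonucleotide reductase, thymidylate synthase and dUTPase supply the nucleotides. Many of these genes are targets of E2F transcription factors. In the thymus, iNKT cells divide early after positive selection, and the mature subsets are largely quiescent.

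Of the 43 members, 10 act in helicase loading and unwinding (Mcm2 to Mcm7, Cdc6, Cdc45, Gins2, Gmnn), 9 at the clamp, polymerases and lagging strand (Pcna, Rfc2, Rpa2, Prim1, Pola1, Pold3, Fen1, Lig1, Dscc1) and 9 in fork protection and repair (Tipin, Clspn, Ung, Exo1, Blm, Brip1, Rad51ap1, Usp1, Wdr76). Another 5 supply nucleotides (Tyms, Rrm1, Rrm2, Dut, Tk1) and 7 act on chromatin, DNA methylation or histone supply (Uhrf1, Hells, Nasp, Chaf1b, Slbp, Cdca7, Ubr7). The last 3 (Ccne2, Dtl, E2f8) were listed as a group named S phase entry, a name that does not describe the role of each.

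Promoter sequence is shown because the members share a class pattern and are known as E2F targets. In RefSeq promoters of GRCm38.p6, from 250 bases before to 50 bases after the start, 34 of the 43 members had an entry. Mcm4, Gins2, Rfc2, Gmnn, Ccne2, Exo1, Tipin, Dscc1 and Usp1 had none. The windows were searched on both strands for the E2F-type letters TTTCCCGC, TTTCGCGC, TTTGCCGC and TTTGGCGC, whose matches on opposite strands can overlap each other. A match was found for 14 of the 34 members (41.2%), beside 704 of all 27025 genes of the table (2.6%). The matches lay before the start in 9 members and after it in 6, Mcm7 having both. The 200 bases before the start of 7 members follow, 5′ to 3′ on the strand of the gene, with the matched letters, or their reverse complement where the match is on the other strand, in capitals. They were chosen because their match lies before the start and they belong to the helicase and chromatin groups, to which the results below return.
Mcm5 (chr8:75109309-75109508, plus strand): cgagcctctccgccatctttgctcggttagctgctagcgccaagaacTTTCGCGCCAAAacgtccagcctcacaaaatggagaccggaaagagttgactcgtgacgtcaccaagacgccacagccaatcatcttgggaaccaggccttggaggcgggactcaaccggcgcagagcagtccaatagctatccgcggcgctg
Mcm6 (chr1:128359706-128359905, minus strand): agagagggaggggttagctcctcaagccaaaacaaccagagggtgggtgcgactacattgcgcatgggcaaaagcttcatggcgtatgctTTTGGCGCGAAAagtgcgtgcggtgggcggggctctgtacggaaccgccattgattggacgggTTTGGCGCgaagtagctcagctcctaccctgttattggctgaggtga
Mcm7 (chr5:138171884-138172083, minus strand): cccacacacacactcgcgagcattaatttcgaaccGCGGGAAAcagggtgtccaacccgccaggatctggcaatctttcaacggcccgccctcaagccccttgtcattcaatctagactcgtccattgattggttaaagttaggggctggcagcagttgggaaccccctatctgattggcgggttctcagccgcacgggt
Cdc6 (chr11:98907951-98908150, plus strand): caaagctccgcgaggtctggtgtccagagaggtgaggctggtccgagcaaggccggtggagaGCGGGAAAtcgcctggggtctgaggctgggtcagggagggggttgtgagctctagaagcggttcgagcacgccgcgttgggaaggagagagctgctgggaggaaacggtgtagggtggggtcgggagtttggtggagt
Cdca7 (chr2:72476019-72476218, plus strand): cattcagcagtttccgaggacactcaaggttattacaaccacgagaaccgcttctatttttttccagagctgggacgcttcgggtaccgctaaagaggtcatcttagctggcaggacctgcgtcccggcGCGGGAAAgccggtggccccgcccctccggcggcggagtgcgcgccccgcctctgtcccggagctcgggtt
Hells (chr19:38930790-38930989, plus strand): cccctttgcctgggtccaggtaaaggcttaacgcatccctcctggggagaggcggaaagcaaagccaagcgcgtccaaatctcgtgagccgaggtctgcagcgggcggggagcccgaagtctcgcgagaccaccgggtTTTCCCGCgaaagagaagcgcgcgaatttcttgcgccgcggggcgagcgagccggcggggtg
Uhrf1 (chr17:56304113-56304312, plus strand): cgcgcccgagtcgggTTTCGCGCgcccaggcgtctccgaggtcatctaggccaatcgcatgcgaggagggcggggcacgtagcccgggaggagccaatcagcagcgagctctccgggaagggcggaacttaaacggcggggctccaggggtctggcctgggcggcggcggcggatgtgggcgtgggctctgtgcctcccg
In Mcm6 the letters begin 110, 106 and 47 bases before the start, in Mcm5 153 and 149, and in Hells 62. The first pair in Mcm6 and the pair in Mcm5 are overlapping matches on opposite strands, shown as 1 run of capitals. Mcm7 and Uhrf1 have 2 starts each in the table, and the window with the match is printed. A match of letters is a description and not a binding site.

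After filtering, 3651 to 7231 cells per library remained, with medians of 4596 and 5268 unique molecular identifiers (UMIs) per cell in C57BL/6 and 6833 and 6491 in the libraries labelled Hivep3-/-. The members held 51771 to 108703 UMIs per library. Pairs of libraries shared 18 to 43 cell barcodes, where independent draws would share 20.6 to 45.1. C57BL/6 replicate 1 stood apart by sex-linked RNA, with 14609 Xist UMIs and 0 from Y-linked genes, beside 3 to 25 and 3568 to 4879 elsewhere. Hivep3 itself had 1735 and 929 UMIs in C57BL/6 and 3464 and 2122 under the Hivep3-/- label, or 38.5 and 36.4 against 101 and 68.0 counts per 1000000 UMIs (CPM). Over all cells its RNA was therefore higher, not lower, in the libraries labelled Hivep3-/-. By the classes described below it was at 254 and 313 against 639 and 326 CPM in stage 0-like cells. It was also higher under that label in cycling-like and iNKT2-like cells. The labels overlapped in iNKT17-like (19.1 and 8.15 against 9.13 and 10.6 CPM) and iNKT1-like cells (14.0 and 16.9 against 18.1 and 15.8 CPM). No source used here says which part of the gene was deleted, so these 5' UMIs do not check the label, and every direction below is one between labels.

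Cells were grouped into classes by clustering with the 43 members left out of the variable genes, and clusters were named from lineage and cell cycle markers other than the members. The level of the module is given as member UMIs per 10,000 UMIs of a cell, averaged over the cells of a library. It was highest in the cycling-like class (clusters 4, 10 and 13), at 45.2 and 42.9 in C57BL/6 and 54.4 and 61.0 in the libraries labelled Hivep3-/-. The stage 0-like class, led by the early markers Itm2a, Cldn10 and Cd24a, came next among the named classes. It was at 20.1 and 19.2 in C57BL/6 and 27.7 and 26.3 under the Hivep3-/- label. Both stood above the mature classes in every library. Given in the same order, the level was 9.45, 9.26, 10.3 and 9.78 in the iNKT2-like class, 9.21, 8.93, 7.58 and 8.81 in the iNKT17-like class and 9.20, 8.26, 8.78 and 8.06 in the iNKT1-like class. Before depth was allowed for, the iNKT2-like class was the highest of the 3 mature classes in each library. The ranges of the iNKT17-like and iNKT1-like classes overlapped. Classes were compared as a description, since they are clusters of the same cells.

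**Figure D1:**
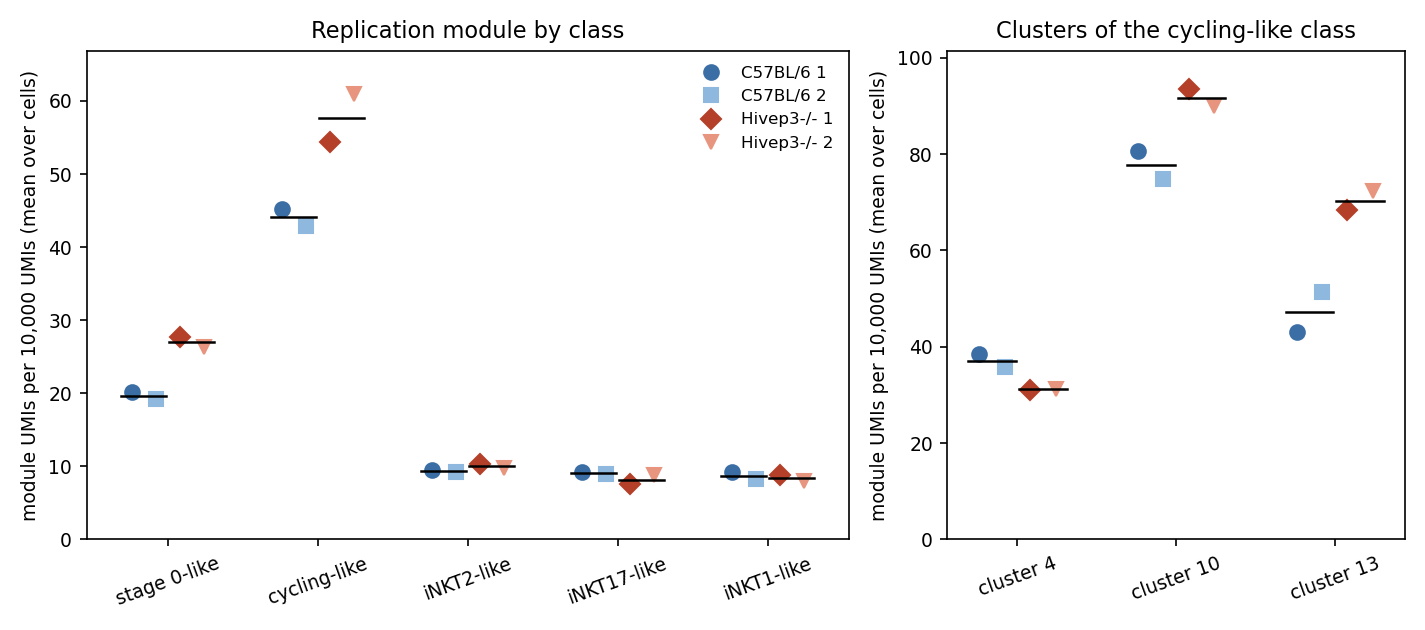
Module level (member UMIs per 10,000 UMIs, mean over cells, linear axes from 0) in each of 4 libraries, by class (left) and in the 3 clusters of the cycling-like class (right), with horizontal lines at genotype means. The libraries labelled Hivep3-/- lie above both C57BL/6 libraries in the stage 0-like and cycling-like classes and in clusters 10 and 13, and below them in cluster 4.

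Among the named classes, cycling-like cells were still highest and stage 0-like cells next in every library after every cell was thinned to 2000 UMIs. Thinning left out 502 shallower cells of C57BL/6 replicate 1 and 75 to 91 of each other library. Of the mature classes, the iNKT2-like class then stayed highest only under the Hivep3-/- label. In C57BL/6 it was at 9.31 and 9.08, beside 9.45 and 9.21 in the iNKT17-like class. The thinned cycling-like level was 43.9 ± 0.725 (SD, n = 2) in C57BL/6 and 57.5 ± 4.87 under the Hivep3-/- label, and the stage 0-like level 20.6 ± 1.77 and 27.4 ± 0.899. Depth moved with the module inside the stage 0-like class and, in C57BL/6, inside the cycling-like class. When stage 0-like cells were split into 3 equal groups by UMI count, the deepest had 29.6, 29.95, 46.2 and 45.1 and the shallowest 13.7, 14.6, 17.7 and 14.6 in the 4 libraries. In cycling-like cells the deepest had 57.8, 51.0, 52.0 and 61.3, where the labels overlapped, and the shallowest 37.6, 36.4, 51.2 and 53.7, where they did not. In iNKT1-like cells all such groups lay between 7.98 and 9.40.

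By single gene, 39 of the 43 members had their highest mean level in the cycling-like class, 35 of them in each library. The other 4, the helicase subunit genes Mcm6 and Mcm7, the uracil glycosylase gene Ung and Cdca7, were highest in the stage 0-like class. The median ratio of cycling-like to iNKT1-like levels was 8.14. It was lowest for Ubr7 (1.72), the histone mRNA-binding protein gene Slbp (2.26) and the clamp loader subunit gene Rfc2 (2.34). It was highest for Cdc6 (149), the checkpoint adaptor gene Clspn (101) and E2f8 (93.5), followed by Rrm2 (85.5) and Uhrf1 (82.6), the reader of hemimethylated DNA. The largest ratios rest on iNKT1-like levels near 0, such as 0.313 CPM for Cdc6 and 0.625 for Clspn, and are imprecise. Where a ratio within a library was available, it was 102 for Cdc6 and 24.7 for E2f8. The members thus differed widely in how far their RNA was concentrated in cycling-like cells. In 38 members the stage 0-like level was above the iNKT1-like level in each library.

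The UMIs of the module were unevenly shared. Mcm6 (ENSMUSG00000026355, chromosome 1, 128331590 to 128359664, minus strand) gave 8.57% of them. Dut (ENSMUSG00000027203, chromosome 2, 125247190 to 125258608, plus strand) gave 8.30%, and Slbp (ENSMUSG00000004642, chromosome 5, 33634952 to 33652574, minus strand) 8.11%. With Pcna (ENSMUSG00000027342, chromosome 2, 132249162 to 132253314, minus strand), at 5.34%, and 5 further members they made up 50.2%. Positions are those of mm10 (GRCm38). A total over the module is therefore weighted to its abundant members, and groups by role are given separately. Members overlapped by a gene on the opposite strand were Mcm7 (Cops6, Ap4m1), Fen1 (Tmem258), Gins2 (Gse1, Gm20388), Rfc2 (Lat2), Ccne2 (Ints8), Cdc45 (Ufd1), Lig1 (Zswim9), Tk1 (Afmid, Gm20708), Ubr7 (Gm20604) and Dscc1 (Gm41325). Whether the counting used strand was not given in the sources read, so their values are uncertain to that extent.

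Over all cells the level of the module did not separate the genotype labels. It was 17.1 and 14.0 in C57BL/6 and 14.1 and 16.4 under the Hivep3-/- label, with means of 15.6 ± 2.19 and 15.3 ± 1.62 (SD, n = 2 each), and the libraries overlapped. When UMIs were pooled over cells, which gives deep cells more weight, the difference was -3.07 instead of -0.294. Leaving out C57BL/6 replicate 1 gave 1.26 and leaving out Hivep3-/- replicate 1 gave 0.848, so the sign rested on single libraries. With another cell filter it was 0.662.

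The near-equal totals were made of different cells. Cycling-like cells were 17.9% and 12.4% of the C57BL/6 libraries and 4.18% and 7.78% of those labelled Hivep3-/-, whereas stage 0-like cells were 4.76% and 3.18% in C57BL/6 and 7.81% and 9.43% under the Hivep3-/- label. Neither share overlapped between the labels. Within the cycling-like class only cluster 4 was lower under the Hivep3-/- label, at 14.7% and 9.81% against 2.28% and 3.70% of cells. Cluster 10 overlapped (2.79% and 2.11% against 1.07% and 3.62%), and cluster 13 was higher (0.332% and 0.438% against 0.826% and 0.456%). The 32 cycling markers summed to 14.2 to 22.4 per 10,000 UMIs in cluster 4, 140 to 165 in cluster 10 and 57.7 to 187 in cluster 13. With 1 common class make-up, the mean share over the 4 libraries, the level was 14.9 and 13.7 in C57BL/6 and 16.6 and 17.3 under the Hivep3-/- label, a difference of 2.63. With 1 common set of class levels it was 18.2 and 16.01 in C57BL/6 and 13.3 and 14.9 under the Hivep3-/- label, a difference of -2.99. The difference at a common class make-up and that at common class levels thus ran in opposite directions. The first is not one of levels alone, since the cycling-like class pools clusters whose mix differed between the labels. The first also depended on the clustering, from 0.579 at a finer resolution to 4.72 without correction between libraries. Without C57BL/6 replicate 1 it was 2.997.

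Module-high cells were counted as cells with at least 5 member UMIs of 2000. They were 19.9% and 15.03% of C57BL/6 cells (95% exact binomial intervals 19.0 to 20.9% and 13.9 to 16.2%). Under the Hivep3-/- label they were 14.9% and 17.7% (13.9 to 15.95% and 16.5 to 18.9%). These intervals cover counting error only, and the libraries of the labels overlapped. Without thinning, 48.7, 49.2, 68.0 and 62.1% of cells passed the same threshold. In iNKT1-like cells a mature class in which little DNA replication is known, the share at the same depth was 3.1003 to 5.50%. Between 9.83% and 11.7% of cells had 4 or 5 UMIs, next to the threshold, so module-high cells are a range of a score and not a cell type.

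The classes that held the module-high cells differed between the labels. In C57BL/6 61.5% and 54.4% of them were cycling-like and 6.27% and 6.17% stage 0-like. Under the Hivep3-/- label 18.8% and 31.4% were cycling-like and 23.5% and 21.3% stage 0-like. Among module-high cells with fewer than 3 UMIs of 38 G2 and mitosis genes, the stage 0-like share was 8.15, 7.60, 25.4 and 25.0% in the 4 libraries. Unnamed clusters held 12.99, 22.8, 38.2 and 34.6% of the module-high cells, most of them in cluster 3, with Gzmb and Gzmc among its leading genes, and cluster 7, where the leading genes were Tnni1, Klrb1a and Htra3. Cluster 7 held 3.58% and 1.12% of module-high cells in C57BL/6 and 14.7% and 21.7% under the Hivep3-/- label. Its module level was 21.2, 14.5, 19.2 and 22.0, which overlapped between the labels, and it had 26 cells in C57BL/6 replicate 2. In cluster 3 the level was 16.6, 16.1, 15.6 and 15.1, lower under the Hivep3-/- label. The 26 iNKT1 markers there summed to 102 to 128 per 10,000 UMIs, beside 106 to 126 in cluster 0 of the iNKT1-like class.

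**Figure D2:**
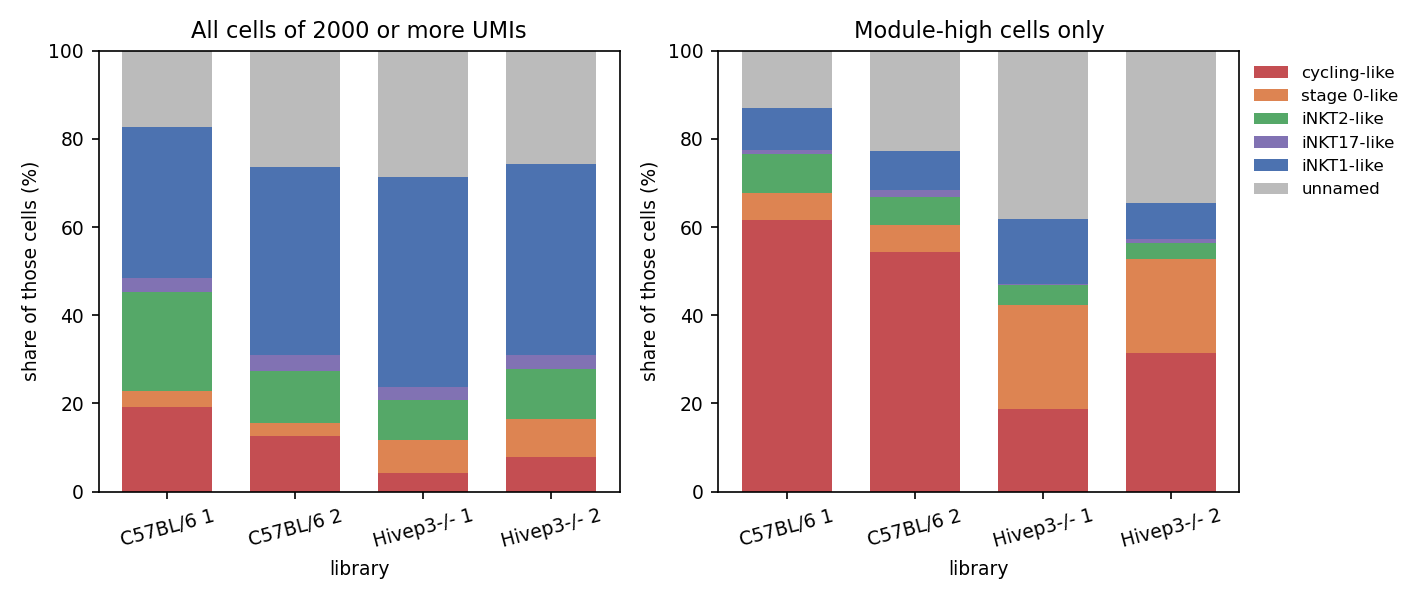
Class make-up of all cells of at least 2000 UMIs (left) and of module-high cells (right), in percent of those cells, as 1 stacked bar per library. Cycling-like cells are 61.5% and 54.4% of the module-high cells in C57BL/6 and 18.8% and 31.4% under the Hivep3-/- label, where stage 0-like and unnamed cells take larger shares.

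In stage 0-like cells the module was higher in both libraries labelled Hivep3-/- than in either C57BL/6 library. The level was 19.6 ± 0.679 in C57BL/6 (SD, n = 2, with 344 and 116 cells) and 27.0 ± 1.03 under the Hivep3-/- label (n = 2, 359 and 393 cells), a ratio of 1.37. Without C57BL/6 replicate 1 the difference of 7.36 was 7.84. Module-high cells were 33.5% and 31.7% of stage 0-like cells in C57BL/6 and 45.8% and 44.0% under the Hivep3-/- label. The 12 stage 0 markers, each of them detected, summed to 77.2 and 70.9 against 93.2 and 76.6 per 10,000 UMIs. A list of 10 double positive thymocyte markers, all of them detected, was at 2.98 and 3.43 against 3.41 and 3.63, and both lists overlapped between the labels. Other lists separated them: 32 cycling markers were higher under the Hivep3-/- label, at 8.07 and 6.77 against 8.54 and 9.91, whereas 11 iNKT2 markers (17.0 and 16.7 against 13.2 and 12.8), 26 iNKT1 markers (7.08 and 7.11 against 5.37 and 5.01) and 8 myeloid markers (2.99 and 2.58 against 1.99 and 2.02) were lower. The lists for natural killer (6 genes), gamma delta T (5 genes) and B cells (9 genes) were also lower, at 0.274 or less in every library. The lists share genes: Fcer1g is in the myeloid and iNKT1 lists, and Klrb1c and Gzma are in the natural killer and iNKT1 lists. Here and below, a list sum is therefore not a count of cells of that type. The part of these markers in the result was not tested.

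The helicase group carried the largest difference by role among the 6 groups. Its 10 genes had 6.98 and 6.78 UMIs per 10,000 in C57BL/6 stage 0-like cells and 12.03 and 9.83 under the Hivep3-/- label, a ratio of 1.59. The ratio was 1.25 for the clamp and polymerases, 1.34 for fork protection and repair, 1.26 for nucleotide supply and 1.27 for chromatin, each without overlap between the labels. The group named S phase entry overlapped, at 0.680 and 0.425 against 0.417 and 0.560.

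No single member was called in stage 0-like cells. edgeR's quasi-likelihood test on counts summed per library, with Benjamini-Hochberg adjustment over 8707 genes, called 0 of the 40 members tested, where it called 0.253% of genes. At an unadjusted p under 0.05 there were 9 members, beside 8.42% of genes, and DESeq2 gave 6 such members and called 0. Both libraries labelled Hivep3-/- were higher in 24 of the 40 members, beside 20% of genes, and lower in 1, beside 18.7%. The log2 difference was above 0 in 36 members, beside 52.9% of genes, with a median of 0.36 over the members and 0.02 over all genes tested. Without C57BL/6 replicate 1 the median was 0.43, with 36 of 41 members above 0. With all 4 libraries, Brip1, Ccne2 and E2f8 did not pass the filter on low counts.

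Mcm6, a core helicase subunit, had 275 and 286 against 453 and 404 CPM in stage 0-like cells, C57BL/6 first. Both libraries labelled Hivep3-/- exceeded both C57BL/6 libraries (log2 0.61 ± 0.15 SE, edgeR adjusted p = 0.153), and the adjusted p ranged from 0.0323 to 0.519 over the alternatives, the lowest value being that with the mouse number as a block. Mcm2 was at 98.9 and 104 against 194 and 138 CPM (log2 0.72 ± 0.20, edgeR adjusted p = 0.213) and Mcm5 at 119.7 and 106 against 166 and 176 (log2 0.59 ± 0.17, adjusted p = 0.223). Mcm7 was at 171 and 144 against 221 and 245 CPM, Mcm4 at 77.4 and 85.8 against 122 and 108 and Mcm3 at 168 and 152 against 209.8 and 192. All 6 subunits of the ring thus had both Hivep3-/- values above both C57BL/6 values, with log2 differences of 0.32 to 0.72. The loading factor Cdc6 had 9.32 and 9.19 against 9.72 and 13.6 CPM and the licensing inhibitor Gmnn 50.9 and 53.6 against 65.2 and 59.9, both without overlap but with differences of less than 2 SE.

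Of the 30 members tested outside the helicase group, 16 had both Hivep3-/- libraries higher, beside 20% of genes, 1 had both lower, beside 18.7%, and 13 overlapped. Pcna, the sliding clamp, had 129.8 and 142 against 118 and 156 CPM and overlapped (log2 0.02 ± 0.18). Fen1, the flap endonuclease that trims Okazaki fragments, was at 60.9 and 39.8 against 71.7 and 74.8 without overlap, and the ligase gene Lig1 at 60.2 and 49.0 against 53.9 and 73.0 with overlap. Of the nucleotide enzymes, Rrm1, the large subunit of ribonucleotide reductase, had 53.8 and 50.5 against 66.4 and 71.7 CPM without overlap. The values of Rrm2 (22.2 and 3.06 against 19.8 and 25.4), Tyms (40.2 and 24.5 against 31.6 and 34.5), Tk1 (10.8 and 10.7 against 8.50 and 18.8) and Dut (207 and 229.7 against 205 and 256) overlapped, as did those of Slbp (190.0 and 123 against 179 and 179) and Uhrf1 (44.5 and 19.9 against 37.3 and 41.5). As single genes, 4 of the 5 nucleotide enzymes overlapped, while their sum did not (2.201 and 2.12 against 2.63 and 2.83 UMIs per 10,000), and no difference between role groups was tested.

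Further members were named here after their values were seen. Cdca7, which acts with the remodeller Hells in DNA methylation, had 138 and 138 against 215 and 203 CPM (log2 0.60 ± 0.16, edgeR adjusted p = 0.185). Wdr76 had 7.89 and 7.66 against 19.4 and 23.2 CPM (log2 1.44 ± 0.38, edgeR adjusted p = 0.189). Blm, a helicase of recombination repair, was the member with both Hivep3-/- libraries lower, at 12.2 and 16.8 against 10.5 and 8.31 CPM.

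**Figure D3:**
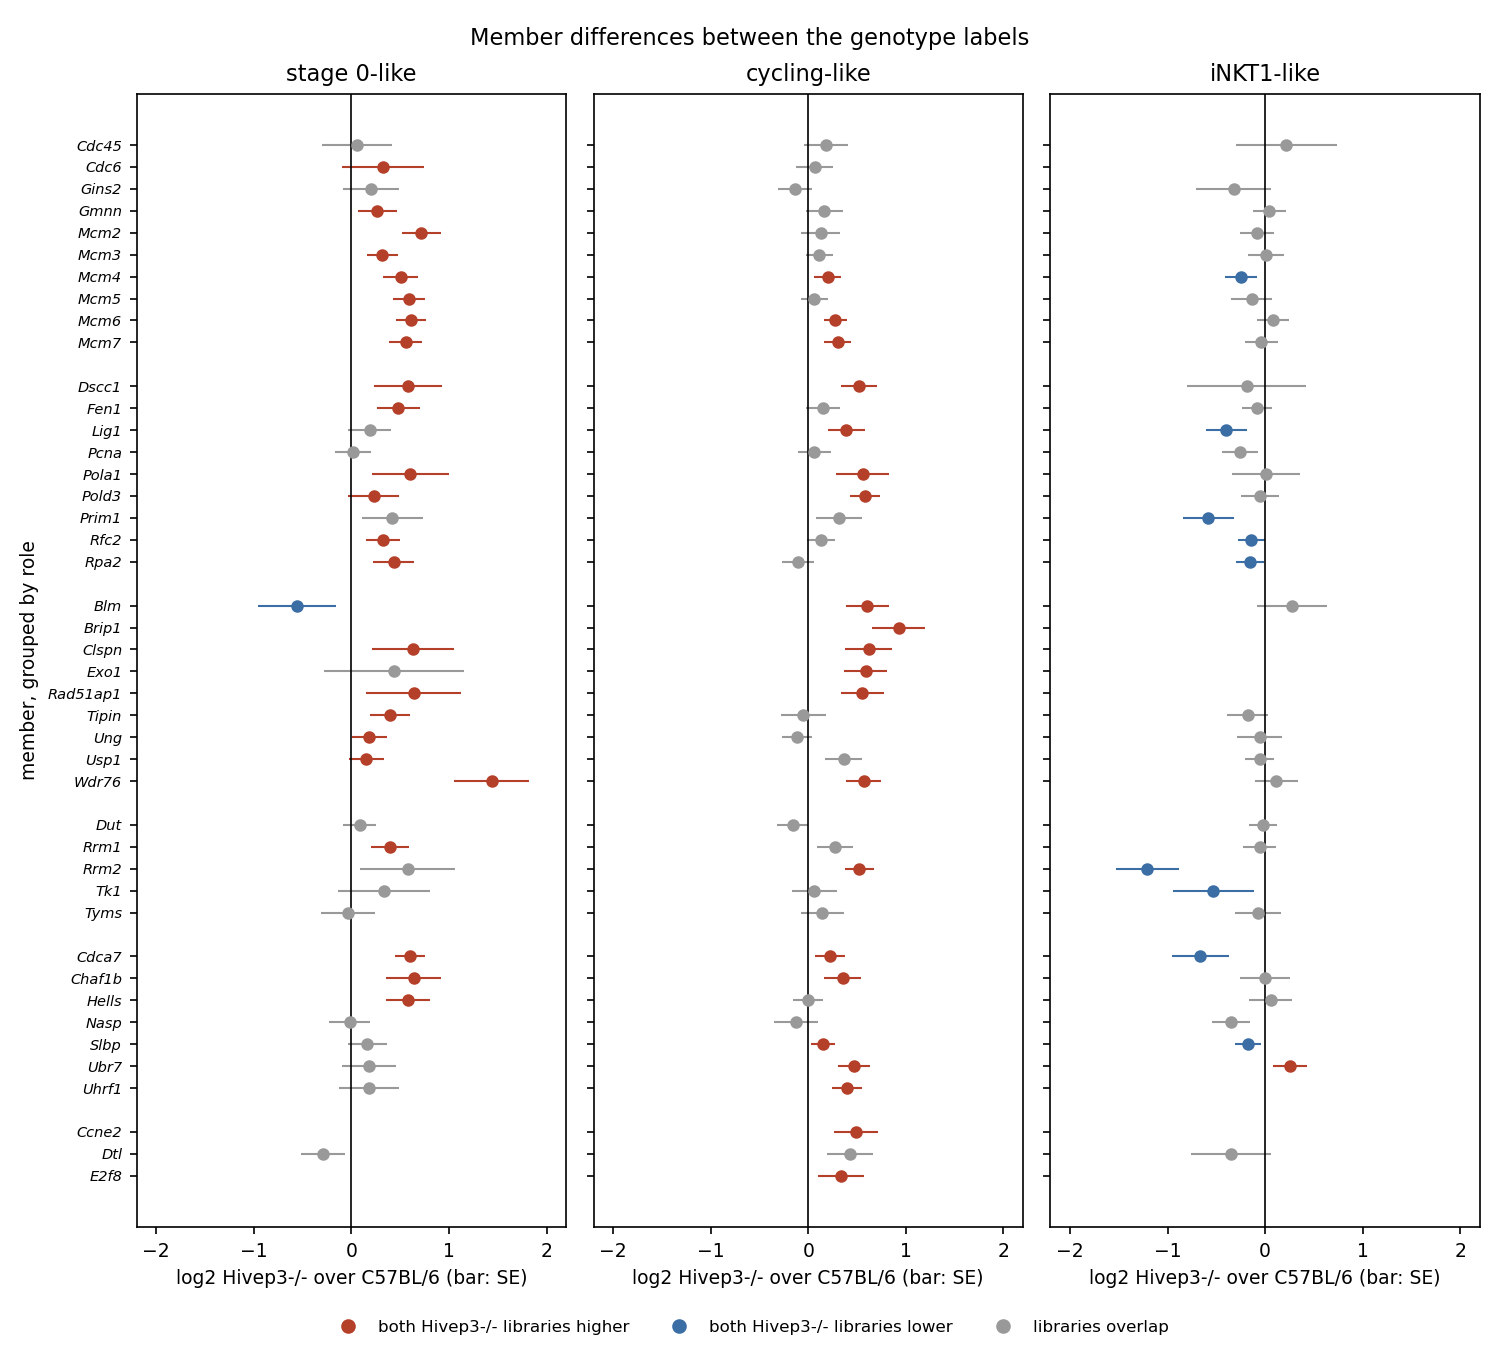
Log2 difference of each tested member between the libraries labelled Hivep3-/- and C57BL/6, with its standard error from edgeR, in stage 0-like, cycling-like and iNKT1-like cells, grouped by role. Red and blue mark members whose libraries do not overlap, 24 higher and 1 lower in stage 0-like cells, where Mcm2 to Mcm7 all lie to the right of 0.

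In cycling-like cells the module was at 44.1 ± 1.64 in C57BL/6 and 57.7 ± 4.71 under the Hivep3-/- label (SD, n = 2 each), again without overlap, and the difference of 13.6 was 14.8 without C57BL/6 replicate 1. The class was not made of the same cells, however. Cluster 4, led by Ccnb2, Il13 and Cenpa, held 1066 of 1292 and 358 of 451 cycling-like cells in C57BL/6, but 105 of 192 and 154 of 324 under the Hivep3-/- label. Within cluster 4 the module level was 38.6 and 35.7 against 31.0 and 31.3, lower under that label. In cluster 10, led by Hist1h2ap and Pclaf, it was 80.7 and 74.8 against 93.5 and 89.9, and in the small cluster 13 43.1 and 51.3 against 68.4 and 72.3, both higher. The difference of the class thus combined opposite differences within it with a different mix of clusters. The 26 iNKT1 markers summed to 11.2 and 12.999 against 54.8 and 27.5 per 10,000 UMIs of cycling-like cells, the 12 stage 0 markers to 14.7 and 12.8 against 26.4 and 24.1, 6 natural killer markers to 0.209 and 0.375 against 4.90 and 0.457 and 8 myeloid markers to 1.46 and 1.48 against 4.59 and 4.34. Also higher under the Hivep3-/- label were 32 cycling markers (39.8 and 48.1 against 63.2 and 98.7) and the double positive thymocyte markers (1.40 and 1.37 against 2.10 and 2.01), whereas the 11 iNKT2 markers (19.0 and 18.6 against 11.4 and 11.7) and 13 iNKT17 markers (0.879 and 0.965 against 0.524 and 0.546) were lower. The part of all these lists in the result was not tested.

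In cycling-like cells edgeR called 0 of 43 members, where it called 2.79% of 10222 genes. There were 11 members at an unadjusted p under 0.05, beside 17.9% of genes, and DESeq2 gave 5 such members and called 0. Both libraries labelled Hivep3-/- were higher in 21 members, beside 25% of genes, and lower in 0, beside 23.7%. The log2 difference was above 0 in 36 of the 43, beside 53.2% of genes, with a median of 0.27 against 0.03 over all genes. Without Hivep3-/- replicate 2 that median was 0.07, with 25 of 43 members above 0, and without C57BL/6 replicate 1 it was 0.31, with 37.

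Rrm2, the regulated subunit of ribonucleotide reductase, was at 239 and 235 against 301 and 380.1 CPM (log2 0.52 ± 0.15, edgeR adjusted p = 0.118) and Uhrf1 at 85.6 and 70.6 against 104 and 103 (log2 0.40 ± 0.15, adjusted p = 0.230). Other members without overlap were Mcm6 (329 and 302 against 384 and 382), Mcm7 (166 and 169 against 191 and 221), Mcm4 (145 and 124 against 158 and 151), Lig1 (100.1 and 99.9 against 106 and 155), Slbp (308 and 285 against 327 and 331) and Ccne2, the cyclin E2 gene (11.5 and 10.3 against 14.2 and 16.4). The libraries overlapped for Mcm2 (151 and 117 against 172 and 123 CPM), Mcm3 (248 and 209.5 against 247 and 249), Mcm5 (199.9 and 171 against 183 and 204) and Cdc6 (49.1 and 42.4 against 40.7 and 54.4). The ring subunits all separated the labels in stage 0-like cells, but only Mcm4, Mcm6 and Mcm7 did so here. In this class 25% of all genes separated them with the Hivep3-/- label higher. The log2 difference was positive for every ring subunit, from 0.06 for Mcm5 to 0.30 for Mcm7. Neither a difference between subunits within this class nor the contrast between classes was tested. The libraries also overlapped for Pcna (222 and 257 against 213 and 286 CPM), Tyms (186 and 201 against 159.5 and 266), Tk1 (120.1 and 129 against 96.5 and 162), Rrm1 (112 and 111 against 109.9 and 158), Fen1 (108 and 113 against 104 and 140.4), Gmnn (114 and 121 against 107 and 155) and Dut (501 and 468 against 367 and 498). In all of these but Dut, Hivep3-/- replicate 2 was the highest library and Hivep3-/- replicate 1 the lowest. Pold3, an accessory polymerase subunit gene named after its value was seen, had the smallest p of the members, at 42.6 and 44.0 against 61.9 and 67.4 CPM (log2 0.58 ± 0.15, edgeR adjusted p = 0.0976).

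Along a count of G2 and mitosis UMIs the members peaked in different groups of cells. Cycling-like cells were split by their UMIs of the 38 G2 and mitosis genes among 2000. The module level was 36.5 ± 1.59 (SD, n = 4 libraries) in cells with 0 such UMIs, 53.8 ± 7.35 with 1 to 2, 57.8 ± 12.3 with 3 to 6 and 53.6 ± 9.42 with 7 or more. With 0 such UMIs the 4 libraries were at 36.2, 34.5, 37.2 and 38.2, and with 7 or more at 46.2, 45.5, 57.8 and 64.9. The labels were thus close in the first group and further apart in the last. Cells with 7 or more made up 21.2% and 27.1% of cycling-like cells in C57BL/6 and 31.0% and 47.4% under the Hivep3-/- label.

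Some helicase genes were lower, and Rrm2, Tk1 and Tyms higher, in the cells with the most G2 and mitosis UMIs. Of the members below, Ung, Cdca7 and E2f8 were chosen after their values were seen. Ung had 1.07 ± 0.0574 UMIs per 10,000 with 0 such UMIs, 1.38 ± 0.0153 with 1 to 2 and 0.216 ± 0.0543 with 7 or more. Cdca7, Mcm2, Mcm4 and Mcm6 were also lower with 7 or more than with 0 in all 4 libraries, Mcm6 at 2.60 ± 0.795 against 3.62 ± 0.538. Cdc6 was higher in the middle groups, at 0.647 ± 0.143 and 0.651 ± 0.0638 against 0.308 ± 0.0854 with 0 and 0.338 ± 0.0888 with 7 or more. By contrast 29 members were higher with 7 or more than with 0 in all 4 libraries, and 9 were mixed. Rrm2 was at 0.527 ± 0.177 with 0 and 5.24 ± 1.13 with 7 or more, Tk1 at 0.344 ± 0.102 and 2.26 ± 0.177, and Tyms at 0.737 ± 0.141 and 3.27 ± 0.384. E2f8, a repressor of E2F targets, was at 0.0173 ± 0.0189 and 0.343 ± 0.0584. These groups of cells rest on other cell cycle genes of the same cells, give no order in time and are a description.

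**Figure D4:**
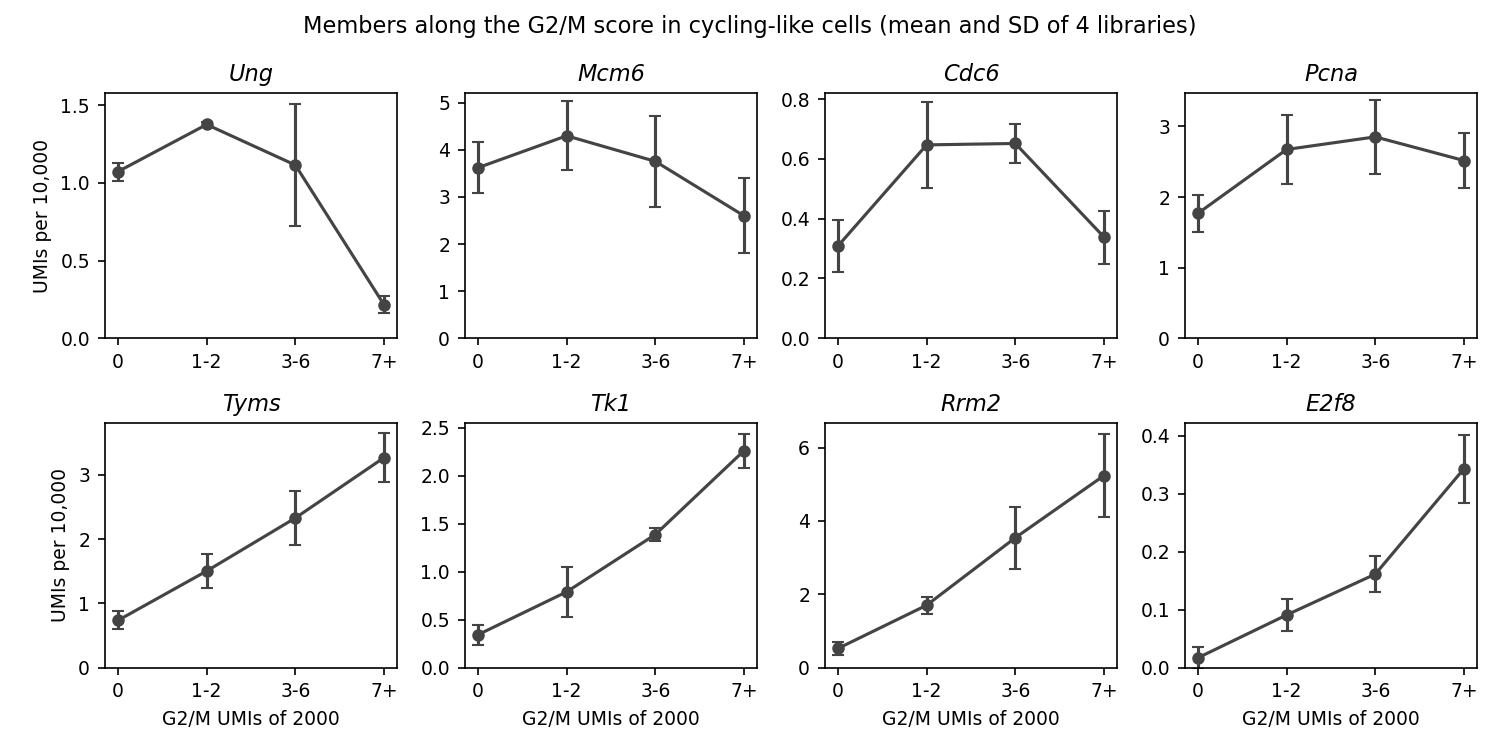
Level of 8 members (UMIs per 10,000 UMIs, mean and SD of 4 libraries, linear axes from 0) in cycling-like cells split by UMIs of G2 and mitosis genes among 2000 (0, 1 to 2, 3 to 6, 7 or more). Ung, Mcm6, Cdc6 and Pcna are highest in the middle groups, and Tyms, Tk1, Rrm2 and E2f8 in the last.

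In iNKT2-like cells the module was at 9.35 ± 0.138 in C57BL/6 and 10.04 ± 0.365 under the Hivep3-/- label (SD, n = 2 each), without overlap. The difference of 0.681 was 0.423 without Hivep3-/- replicate 1. The median cell was also higher, at 7.38 and 6.82 against 8.50 and 8.16, as was the share of thinned cells with at least 3 member UMIs (25.0% and 25.5% against 29.4% and 27.8%). Module-high cells, however, were 7.70% and 8.10% in C57BL/6 against 7.65% and 5.56%. The 90th percentile was 17.9 and 17.5 against 17.0 and 17.3, so both upper measures were lower under the Hivep3-/- label. In the same class the stage 0 markers (13.4 and 11.9 against 18.5 and 15.02), iNKT1 markers (17.3 and 19.6 against 24.4 and 22.4) and double positive thymocyte markers (1.71 and 1.83 against 2.91 and 2.83) were higher under the Hivep3-/- label, as were the myeloid (1.28 and 1.34 against 1.79 and 1.75) and gamma delta T cell markers (1.33 and 1.48 against 2.05 and 2.54). The iNKT2 (24.9 and 24.3 against 20.4 and 18.4), B cell (1.45 and 1.201 against 0.880 and 0.909) and natural killer markers (0.317 and 0.438 against 0.257 and 0.202) were lower, and the part of these lists in the result was not tested. edgeR called 0 of 34 members, beside 0.303% of 9574 genes, with 3 at an unadjusted p under 0.05 (9.23% of genes), while DESeq2 gave 0 such members and called 0. Mcm6 was at 111 and 118 against 144 and 144 CPM (log2 0.33 ± 0.12, edgeR adjusted p = 0.472). Tyms (16.2 and 13.8 against 8.38 and 11.6) and Dut (90.4 and 95.6 against 68.4 and 78.2) differed the other way. Both Hivep3-/- libraries were higher in 8 members (20.7% of genes) and lower in 9 (19.5% of genes), close to the background.

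In iNKT17-like cells the module was at 9.07 ± 0.202 and 8.20 ± 0.869, without overlap. The difference of -0.870 was -0.256 without Hivep3-/- replicate 1, -1.48 without Hivep3-/- replicate 2 and -2.09 after thinning. Double positive thymocyte markers were at 4.27 and 4.37 against 4.90 and 4.59 and myeloid markers at 2.30 and 2.73 against 2.90 and 3.74 in this class, both higher under the Hivep3-/- label, and their part was not tested. edgeR called 0 of 30 members, beside 0.105% of 7623 genes. There were 2 members at an unadjusted p under 0.05 (5.92% of genes), and DESeq2 gave 0 and called 0. Both Hivep3-/- libraries were higher in 2 members (18.1% of genes) and lower in 5 (17.1%), and 11 had a log2 difference above 0 (50.7% of genes). Dut, the dUTPase gene, was at 91.4 and 106 against 50.8 and 80.9 CPM, as in iNKT2-like cells below both C57BL/6 values.

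In iNKT1-like cells the module was at 8.73 ± 0.666 and 8.42 ± 0.503, with overlap. The iNKT1 (131 and 149 against 175 and 188) and myeloid markers (5.55 and 6.50 against 10.0 and 11.6) were higher under the Hivep3-/- label. So were iNKT17, double positive thymocyte and gamma delta T cell markers. The iNKT2 (6.01 and 5.49 against 3.67 and 3.03) and natural killer markers (10.3 and 11.6 against 5.94 and 7.74) were lower. Cluster 1 of this class held 8.55% and 10.5% of cells against 21.7% and 22.2%. Tyrobp and Fcer1g, both of the myeloid list, were among its leading genes, and Fcer1g is also an iNKT1 marker. The part of these lists and of cluster 1 in the result was not tested. edgeR called 0 of 35 members, beside 0.652% of 10430 genes, with 1 at an unadjusted p under 0.05 (8.65% of genes), and DESeq2 gave 1 and called 0. That member was Rrm2, at 5.39 and 4.22 against 2.23 and 1.91 CPM (log2 -1.21 ± 0.32, edgeR adjusted p = 0.228). Both Hivep3-/- libraries were higher in 1 member (19.3% of genes) and lower in 9 (18.6%), and the log2 difference was above 0 in 9 (49.1% of genes).

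Summed over all cells, edgeR called 0 of the 43 members, beside 0.765% of 12291 genes. Of the members 2 had an unadjusted p under 0.05, beside 12% of genes, while DESeq2 gave 8 and called 0. Both Hivep3-/- libraries were lower in 18 members, beside 20.5% of genes, and higher in 1, beside 23.6%. The log2 difference was above 0 in 4, beside 53.7%, with a median of -0.34, which was -0.21 without C57BL/6 replicate 1 and -0.09 without Hivep3-/- replicate 1. Dut was at 230.0 and 188 against 105 and 164 CPM (log2 -0.64 ± 0.23, edgeR adjusted p = 0.334), and Tk1 at 43.7 and 38.1 against 10.02 and 29.3 (log2 -1.06 ± 0.44). Fewer cells of a class and less RNA per cell cannot be told apart in such sums.

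Further genes of the pathway were read from lists. Of 59 other replication genes, 52 were tested in stage 0-like cells, where edgeR called 0 (0.253% of all genes). An unadjusted p under 0.05 was found for 6 (8.42% of all genes), a log2 difference above 0 for 43 (52.9%), and the median log2 difference was 0.26. In cycling-like cells all 59 were tested, 0 were called (2.79% of all genes), 11 had an unadjusted p under 0.05 (17.9%) and 46 were above 0 (53.2%), with a median of 0.22. Of the 38 G2 and mitosis genes 0 were above 0 over all cells (53.7% of all genes), with a median of -0.72, but 34 in cycling-like cells, with a median of 0.47. In stage 0-like cells 12 of them passed the filter and 7 were above 0, and the background shares in these classes are those just given. None of either list was called in any of the 6 populations by edgeR. For the G2 and mitosis genes, 6 had an unadjusted p under 0.05 over all cells (12% of all genes), 14 in cycling-like and 2 in stage 0-like cells.

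Of 21 cell cycle exit genes, Cdkn2a, which encodes the inhibitors p16 and Arf, was the gene called, in 2 of the 6 populations, where edgeR called 0.765% (all cells) and 2.79% (cycling-like) of all genes. Over all cells it fell, from 7.32 and 7.03 CPM in C57BL/6 to 0.722 and 0.9496 under the Hivep3-/- label (log2 -3.102 ± 0.29, edgeR adjusted p = 0.00953). The call was lost without C57BL/6 replicate 1 (log2 -3.07), without Hivep3-/- replicate 1 (log2 -2.92) and after thinning (log2 -2.41). In cycling-like cells it was at 16.9 and 22.6 against 5.77 and 4.54 CPM (log2 -1.95 ± 0.29, edgeR adjusted p = 0.0161), a call lost without Hivep3-/- replicate 2 (log2 -1.78) and after thinning (log2 -1.28).

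Outside the module, the genes whose pattern was most like it were found over 20 class by library values of log2(CPM + 1), among 6926 genes of at least 20 CPM in a class mean of a genotype. The closest included Rfc3 (Pearson r = 0.995), Rfc5 (0.986), Fignl1 (0.979), Rfc4 (0.978), Smc2 (0.978), Pole2 (0.978), Rad54l (0.977), Ptma (0.977) and Spc24 (0.976). Of these, Rfc3, Rfc5, Rfc4 and Pole2 belong to the list of other replication genes, the Rfc genes encoding clamp loader subunits. Rfc3, the closest, had mean levels of 69.3 CPM in cycling-like cells, 44.3 in stage 0-like cells and 13.8 to 16.1 in the 3 mature classes. The 20 values share 4 libraries and the same high classes, so r describes the class pattern and carries no p.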

How the data were processed

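Single-cell 5' libraries of thymic iNKT cells from 4 mice, 2 C57BL/6 and 2 labelled Hivep3-/-, were analysed, grouped by their titles. The authors aligned the reads to mm10, and the deposited values are whole-number UMI counts per gene and cell; the submitters' processing notes name Cell Ranger 3.1.0 and Seurat 3.1.4. The members and gene lists were chosen with earlier results of these data known.

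Cells with at least 500 and fewer than 4100 genes, at least 1000 UMIs and under 6% mitochondrial UMIs were kept (19647 cells). Scrublet in scanpy 1.11.5 marked 0 to 5 cells per library, too few to have worked, so doublets were not removed and removal of the 5% highest scores was an alternative. Cells were clustered with Seurat 5.3.0 (R 4.3.3) on 2000 variable genes, 30 principal components, mutual nearest neighbour correction (20 neighbours) and resolution 0.8. The members (41 of which would have been variable), Hivep3, 26 genes named by the study, sex-linked genes and 261 receptor segments were barred from the variable genes. A cluster was named where at least 3 listed markers were among its 20 leading genes and no other list had more among the leading 10.

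Counts were summed per library and class and tested two-sided with edgeR 4.0.16 (quasi-likelihood, TMM, filterByExpr, Benjamini-Hochberg adjustment over all genes tested; called at an adjusted p under 0.05); CPM are TMM-scaled. Summed depth was 25518692 to 45022744 UMIs per library over all cells and 693779 to 2306902 in stage 0-like cells, where single genes are less precise. Counts were simulated with the same assumed dispersion for every gene, not estimated from these libraries, and recovery depends on that choice. On them edgeR recovered 34% of genes changed by 1 and 88% of those changed by 2 on the log2 scale in stage 0-like cells (8513 genes). In cycling-like cells (10075 genes) it recovered 46% and 89%. Module levels and shares carry no test, and an exact permutation test of 2 against 2 libraries cannot give a p below 0.333. Alternatives were DESeq2 1.42.0, RLE size factors, no filter on low counts, a replicate block, thinning, each library left out, doublet removal, other cell filters and other clusterings. Values per library are given for Mcm2 to Mcm7, Pcna, Tyms, Rrm1, Rrm2, Tk1, Dut, Lig1, Fen1, Uhrf1, Cdc6, Ccne2, Gmnn, Slbp and any member called, for called genes of the other lists (at most 6 per list) and for the 10 most similar genes, except where an item is not reported here; other genes are named as chosen later.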

Additional observations from a re-analysis of the deposited data

Results flagged for a closer look

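The genotype difference of the module had one sign in some classes and the other sign in another, with the libraries of each label on opposite sides. The difference between classes was not tested. The module level under the Hivep3-/- label minus that in C57BL/6 was 7.36 UMIs per 10,000 in stage 0-like cells, 13.6 in cycling-like cells and 0.681 in iNKT2-like cells, but -0.870 in iNKT17-like cells. Leaving out 1 library gave 0.423 to 0.939 in iNKT2-like and -1.48 to -0.256 in iNKT17-like cells, the values nearest 0 being those without Hivep3-/- replicate 1. In iNKT2-like cells the share of module-high cells differed the other way from the level. With 2 libraries per label such a separation is common, since between 17.1% and 25% of all genes show it in a given direction and population.

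Inside the cycling-like class the same difference was -5.97 in cluster 4, 14.0 in cluster 10 and 23.1 in cluster 13, also not tested against each other. Cluster 13 held 16 to 38 cells per library.

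Named members whose libraries separated in opposite directions in different classes, again without a test between classes, were as follows, by log2 difference. Lig1 had 0.39 in cycling-like, -0.57 in iNKT2-like and -0.40 in iNKT1-like cells. Mcm4 was at 0.51 among stage 0-like cells, 0.20 among cycling-like, 0.27 among iNKT2-like and -0.25 among iNKT1-like cells. Rrm2 stood at 0.52 for cycling-like, -0.48 for iNKT2-like and -1.21 for iNKT1-like cells. Slbp gave 0.15, -0.16 and -0.17 for the same classes, and Uhrf1 0.40 in cycling-like and -0.43 in iNKT2-like cells.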

How the results depend on the processing

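The count of called members, 0 in all 6 populations, was also 0 with DESeq2, RLE size factors, thinning and doublet removal, at resolution 0.4, without all listed cell cycle genes and, over all cells, with another cell filter. Without a filter on low counts it was 7 over all cells and 1 in iNKT1-like cells, all lower under the Hivep3-/- label, and 3 in stage 0-like and 3 in cycling-like cells, all higher. In cycling-like cells it was 5 at resolution 1.2, 1 with the members among the variable genes and 9 without correction between libraries, all higher under the Hivep3-/- label; the cause was not tested. Leaving out 1 library gave 0 to 2 over all cells (both lower, without Hivep3-/- replicate 2), 0 to 1 in stage 0-like cells (Mcm2, without Hivep3-/- replicate 2) and 0 to 3 in cycling-like cells (Brip1, Clspn and Rrm2, without Hivep3-/- replicate 1). Mice share only a number between genotypes, and deviations of same-numbered libraries correlated at 0.0130 to 0.190. With the mouse number as a replicate block, 1 member was called, Mcm6 in stage 0-like cells, and genes called went from 94 to 212 over all cells, 22 to 117 in stage 0-like and 285 to 538 in cycling-like cells. Without a filter on low counts 965, 202 and 1058 genes were called in these populations, and by DESeq2 413, 27 and 329. The module difference in stage 0-like cells was positive in all 12 alternatives, at 6.63 to 8.09 without 1 library and 10.4 with pooled UMIs. In cycling-like cells it was 10.3 to 16.9 without 1 library, 22.5 at resolution 1.2, 19.6 with the members among the variable genes and 27.4 without correction. In iNKT2-like cells it was 0.276 with the members among the variable genes and 0.286 without correction, in iNKT17-like cells -2.09 after thinning and in iNKT1-like cells -2.02 without correction. Over all cells it was -3.07 with pooled UMIs and -1.84 to 1.26 without 1 library. At a common class make-up it was 1.49 at resolution 0.4, 0.579 at resolution 1.2, 0.870 with the members among the variable genes and 4.72 without correction. Of the members tested, 26 of 40 in stage 0-like and 23 of 43 in cycling-like cells kept their sign in every alternative. Depth limits the rarer members, since 29 passed the filter in stage 0-like cells after thinning.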
